A study of Drosophila melanogaster with 16 samples.

Results

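Acetylation of histone H3 at lysine 27 (H3K27ac) was measured at the promoters of adult Drosophila melanogaster neurons and compared with unselected chromatin of the same neurons. The 3 libraries compared were 2 of H3K27ac and 1 of input, of 16 in the series. All 15182 annotated genes entered, each with 1 promoter: for a gene with several annotated isoforms, the isoform whose window held the largest sum of the 2 H3K27ac libraries was kept. A promoter was the window of 1001 bases from 500 bases before to 500 bases after the annotated start, on the dm3 assembly. All 3 libraries came from heads of adult flies in which R57C10-GAL4 drove the nuclear envelope fusion unc84-GFP in mature neurons. Tagged nuclei were pulled out with antibody-coated beads from a homogenate of many pooled frozen heads, and the chromatin was cut with micrococcal nuclease in buffers with sodium butyrate, which inhibits deacetylases. The profile is therefore an average over every kind of neuron in the head, and a mark present in few neurons cannot be told apart from a weak mark in many. Their column names carry dates, from which the 2 H3K27ac libraries take the names early and late. The labels give no age beyond adult, no sex and no statement that the libraries came from separate preparations. The p-values therefore measure only the spread between the 2 H3K27ac libraries, shared over genes, which may be technical. With 1 input, the spread between inputs is not measured.

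H3K27ac is written mainly by the acetyltransferase CBP, encoded in flies by nej, and is found at the promoters and enhancers of active genes. The same lysine can carry 3 methyl groups instead (H3K27me3), the mark written by the Polycomb system on silenced developmental genes, and a single histone tail cannot hold both. H3K4me3 is the classical mark of active promoters. Neurons are long-lived cells that no longer divide, and they keep a shared set of genes for excitability and synaptic release active beside the housekeeping genes of every cell.

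The early and late H3K27ac libraries held 17240038 and 10042946 promoter counts, and the input held 7314094. Values per library are CPM, the promoter's counts scaled to a common total of promoter counts in each library. The log2 ratio of H3K27ac to input came from edgeR, scaled so that 0 means the same share of promoter counts in the mark as in the input. It is a relative scale with no absolute zero. Of the 15182 genes, 14740 had enough counts to be tested; of the other 442, 361 had no count in any of the 3 libraries.

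Promoters of neurons covered a continuous range of ratios, and the groups that follow are set by the test threshold. At an adjusted p under 0.05 (edgeR quasi-likelihood test, Benjamini-Hochberg over all tested genes), 4847 promoters (32.9% of those tested) lay above input, 5493 (37.3%) lay below, and 4400 did neither, so 70.1% were called in either direction. Of those above, 2466 were at least 2-fold above. Of those below, 4317 were at least 2-fold and 1562 at least 4-fold below. The median promoter called above held 105 and 107 CPM in the early and late libraries and 51.7 CPM in the input. The median promoter called below held 26.5 and 25.9 CPM of H3K27ac and 83.1 CPM of input. Since the calls rest on the ratio, opposite shifts of mark and input between these groups partly follow from the selection. The part that nuclease access to active promoters has in the ratio was not tested. Over all genes the ratio had a median of 0.01, a 10th percentile of -2.03 and a 90th percentile of 1.19, so the lower tail was the longer one. With a background scaling in which the summed counts of odorant, gustatory and ionotropic receptor promoters were set equal, the median of all genes moved to 0.70, and 7162 promoters lay above and 3249 below. Where a family is described as above or below input, the reference is the share of all promoter counts, and families whose median changes sign with this scaling are named as such.

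The 2 H3K27ac libraries gave nearly the same picture. Their single-library log2 ratios, with a pseudocount of 1 CPM, correlated at a Pearson r of 0.965 across the 14740 genes, which share the input and are not independent replicates. The median difference between them was 0.21 in size, its 99th percentile was 0.91, and 93.6% of genes lay on the same side of the input in both.

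**Figure D1:**
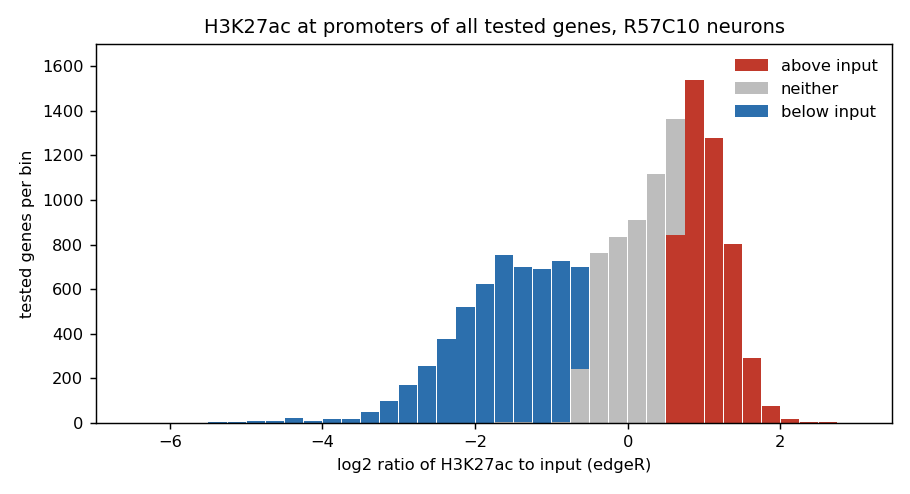
Distribution of the log2 ratio of H3K27ac to input (horizontal axis, edgeR) over the 14740 tested genes (vertical axis, genes per bin of 0.25), coloured by whether the promoter was called above input, below input or neither. The called promoters form a peak near 1 on the right and a broad shoulder reaching beyond -3 on the left.

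Among genes with a symbol and an H3K27ac level over the median, the highest ratio belonged to Hsromega, a long noncoding RNA gene known for nuclear speckles and heat shock (3R, 17122345 to 17124230). Its promoter held 217 CPM early and 195 CPM late against 34.9 CPM of input, a log2 ratio of 2.56 ± 0.28 (SE; adjusted p = 1.3e-18 by edgeR). Both H3K27ac libraries stood more than 5-fold above the input. In the fit that took each gene's start with the least H3K27ac, Hsromega was at 0.33 (adjusted p = 0.375 by edgeR). The nuclear protein gene east followed at 2.31, E(Pc), a subunit of the Tip60 acetyltransferase complex, at 2.27, and cta, a G protein alpha subunit, at 2.22. The microRNA gene mir-2496, at 2.21, starts 560 bases from east, and their windows share reads. Rsf1 (a splicing repressor), the tetraspanin TM4SF, the polyubiquitin gene Ubi-p5E, the septin pnut and the JAK/STAT receptor dome completed the 10 highest of these with ratios from 2.14 down to 2.10. CG9894 (2.5) and CG12054 (2.37), known by number only, lay among them, with 267 and 265 CPM against 47.0 CPM of input for CG9894. None of the 10 is on the presynaptic and pan-neuronal list, but that list holds 42 of the 14740 tested genes, so few sets of 10 would include a member.

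Among genes with a symbol and an input over the median, the 10 lowest promoters all lay on 3R, inside the Hox gene complexes or just beyond their ends. Lower ratios were found at genes of the Y chromosome and of unplaced sequence, described further on, and genes known by number only, such as CG14362 (-3.83), lay in the same range elsewhere. The lowest was zen, a homeobox gene of early embryos (3R, 2578586 to 2579916), with 8.88 and 10.4 CPM of H3K27ac against 139 CPM of input, a log2 ratio of -3.86 ± 0.29 (SE; adjusted p = 1.1e-36 by edgeR). Its neighbours in the Antennapedia complex, the cuticle protein genes Ccp84Ag and Ccp84Ac, were at -3.84 and -3.41. The bithorax complex contributed the noncoding transcripts tre-1 (-3.75), msa (-3.42) and bxd (-3.40) and the sugar transporter gene Glut3 (-3.52). Sodh-1, a sorbitol dehydrogenase gene at -3.60, and djl, a sperm protein relative at -3.47, lie beyond Antp, Sodh-1 at 2878057 to 2880264 and djl at 2886489 to 2887641. Actn3, an alpha-actinin gene at -3.43, lies beyond Abd-B, at 12801607 to 12803517. In each of these promoters both H3K27ac libraries held at most 14.8 CPM and the input at least 66.2 CPM.

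**Figure D2:**
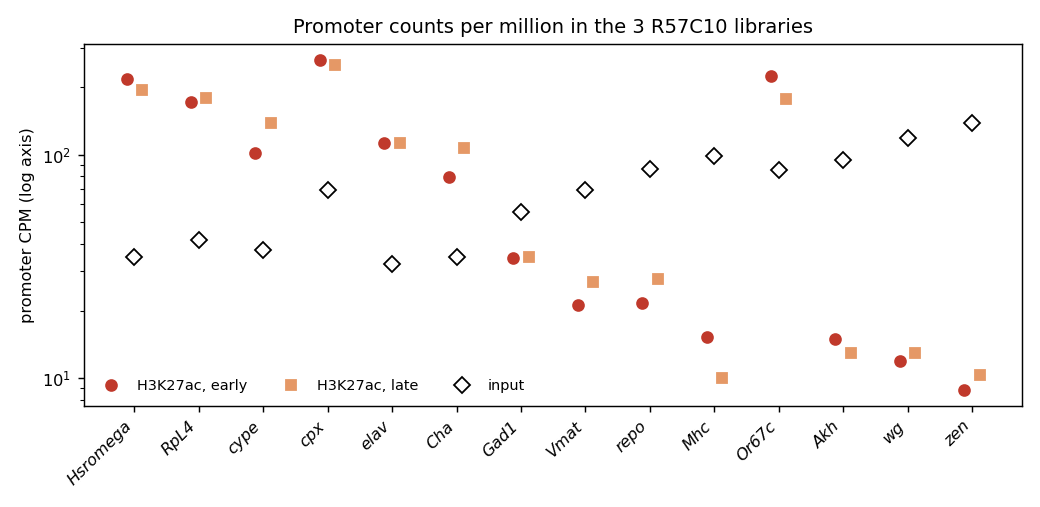
Promoter CPM (vertical log axis) of 14 genes in the early (circles) and late (squares) H3K27ac libraries and in the input (open diamonds). For Hsromega, RpL4, cype, cpx, elav, Cha and Or67c both H3K27ac libraries lie above the input, and for Gad1, Vmat, repo, Mhc, Akh, wg and zen both lie below it.

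Genes of the ribosome, the respiratory chain and tRNA charging were mostly above input. Of 88 cytoplasmic ribosomal protein genes, 77 lay above input and 2 below, with a median of 1.11, against 0.01 for all genes. RpL4 held 172 and 180 CPM against 41.7 CPM of input (log2 ratio 2.08 ± 0.28 SE). RpL26 held 82.8 CPM early and 158 CPM late against 28.8 CPM; the libraries differed almost 2-fold, and both were above the input. The 2 genes below were RpS5b (-1.99) and RpS19b (-1.0), both the second copy of a ribosomal protein, known in flies for gonad-biased expression. Mitochondrial ribosomal protein genes were above in 59 of 73 cases and below in none, with a median of 0.87. All 22 respiratory chain genes lay above, from RFeSP (the iron-sulfur subunit of complex III) at 0.66 to cype (a cytochrome c oxidase subunit) at 1.69, with a median of 1.14. Aminoacyl-tRNA synthetase genes were above in 16 of 21 cases and below in none (median 0.83), and proteasome subunit genes were above in 18 of 30 (median 0.76).

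Some duplicates of the same genes had lower ratios. Of 11 proteasome paralogs with a T or R suffix, 6 lay below input, 5 neither and none above, with a median of -0.70; under the background scaling 3 lay below and 2 above, with a median of -0.02. Prosalpha6T was the lowest, with 22.3 and 23.4 CPM against 125 CPM of input (log2 ratio -2.45 ± 0.28 SE). The 2 members of the main proteasome list below input were Pros28.1A (-1.71) and Pros28.1B (-0.72), which are also copies of an alpha subunit gene. The V-ATPase, the pump that acidifies vesicles and so drives transmitter loading, had members on both sides. Of 33 genes, 17 lay above, led by the proteolipid subunit Vha16-1 (210 and 164 CPM against 46.1 CPM of input, 2.02 ± 0.27 SE), and 8 lay below, led by VhaM9.7-d (-3.30), which lies 2591 bases from Actn3 beside the bithorax complex, and Vha16-4 (-2.59). The V-ATPase median was 0.59 over all members and -0.03 over the 18 with no other start within 1000 bases. Of the V-ATPase genes 51.5% lay above and 24.2% below, against 32.9% and 37.3% of all genes. Chaperones had a median of 0.03, near the 0.01 of all genes, with 5 of 20 above and 2 below. The shares were 25% and 10%, against 32.9% and 37.3% of all genes. The constitutive Hsc70-3 (1.15) and Hsc70-5 (1.12) were above, and Hsc70-1 (-2.75) and Hsc70-2 (-1.97) were below. Of 111 replication-dependent histone genes, 110 could not be tested; these genes are near-identical repeats, whose reads the authors' alignment may not have placed.

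**Figure D3:**
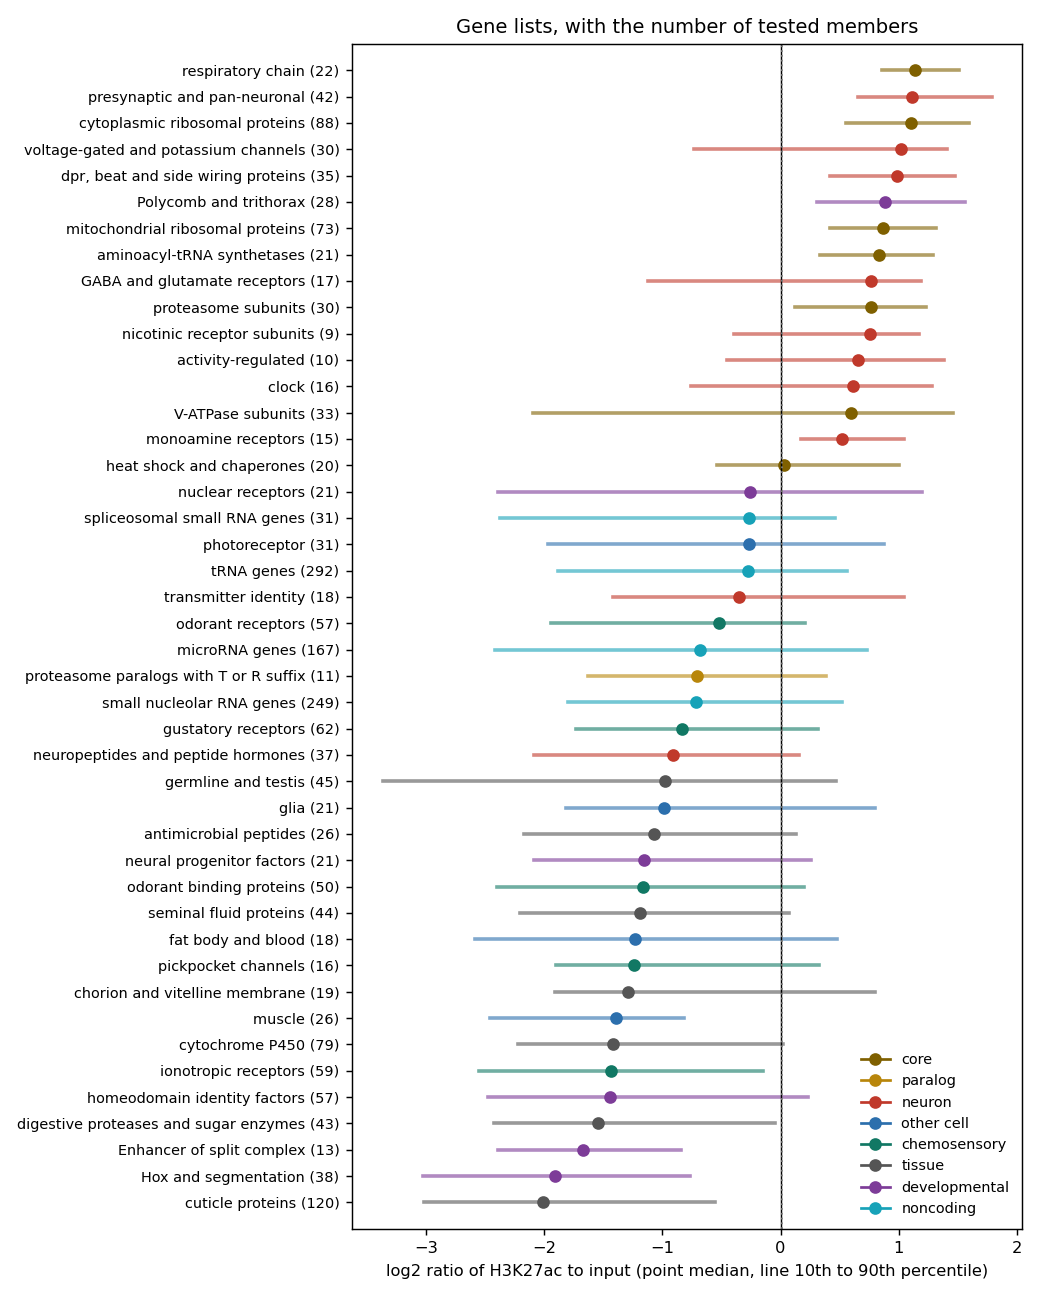
Median log2 ratio of H3K27ac to input (points) and 10th to 90th percentile of the tested members (lines) for 44 gene lists, ordered by median and coloured by kind of list, with the number of tested members in parentheses. Respiratory chain, presynaptic and ribosomal protein genes are at the top with medians of 1.11 to 1.14, and cuticle protein and Hox genes at the bottom with -2.01 and -1.91; the dotted line is the median of all genes (0.01).

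Genes of the presynaptic terminal and other pan-neuronal genes were also mostly above input. Of 42, 38 lay above input and none below, with a median of 1.11. The highest was cpx, encoding complexin, which controls vesicle fusion: 264 CPM early and 251 CPM late against 69.2 CPM of input (log2 ratio 1.90 ± 0.26 SE; adjusted p = 1.2e-12 by edgeR). The endocytic gene endoA was at 1.82 and nrv3, a sodium pump beta subunit of neurons, at 1.81. The neuronal RNA-binding protein gene elav, the standard marker of fly neurons, held 113 and 112 CPM against 32.3 CPM (1.8 ± 0.31 SE). The 4 members called neither were X11L (0.55), comt (0.50), CaMKII (-0.14) and Syt1 (-0.28); for the last 2 another annotated start of the same gene lay above the input, as described further on. With TMM scaling X11L lay above (adjusted p = 0.0489 by edgeR). With the inputs of 3 driver lines as 1 group, X11L and comt lay above (adjusted p of 0.0122 and 0.0189 by edgeR). In that fit Syt1 lay below (0.0305). The genes elav, nrv3, X11L and comt were named after their values were seen.

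Ion channel genes followed: 21 of 30 voltage-gated and potassium channel genes lay above and 3 below, with a median of 1.02. The potassium channel beta subunit Hk held 80.1 and 78.1 CPM against 27.3 CPM of input (1.53 ± 0.31 SE), and na, the sodium leak channel, was at 1.49. The 3 below were Irk3 (-2.62) and Irk2 (-2.27), which are inward rectifiers, and the leak channel Ork1 (-2.24). Among receptors, 6 of 9 nicotinic subunits lay above (median 0.75), led by nAcRalpha-96Aa at 1.22, and nAcRbeta-21C lay far below, with 8.12 and 11.8 CPM against 62.1 CPM of input (-2.66 ± 0.28 SE). GABA and glutamate receptor genes were divided, 9 of 17 above and 6 below, with a median of 0.76. The 35.3% below is near the 37.3% of all genes, and the 52.9% above compares with 32.9% of all genes. The chloride channel genes Lcch3 (1.39) and GluClalpha (1.32) were the highest. GluRIIA (-1.58) and GluRIIB (-1.42), subunits of the receptor of the neuromuscular junction, were the lowest, and the other 4 below were GluRIIE, clumsy, mGluRA and KaiRIA, from -0.93 to -0.69. With 1 H3K27ac library left out and 3 inputs, mGluRA was at -0.73 and -0.55, with adjusted p of 0.0891 and 0.167 by edgeR. The monoamine receptor list also holds mAcR-60C, a muscarinic acetylcholine receptor gene. On this list 5 of 15 genes lay above and none below, led by Octbeta2R (1.28) and mAcR-60C (1.14), with a median of 0.52. The 33.3% above on this list is near the 32.9% of all genes, and 11 lay above with TMM scaling and 14 under the background scaling.

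Genes that define the transmitter of a neuron were much less uniform. Of 18 such genes, 4 lay above input, 8 below and 6 neither, with a median of -0.35 (0.34 under the background scaling). The cholinergic genes were the highest: Cha, the acetylcholine synthase, held 79.3 CPM early and 107 CPM late against 34.9 CPM of input (1.42 ± 0.30 SE; adjusted p = 1.0e-05 by edgeR). VAChT, the vesicular acetylcholine transporter, was at 1.34, but it starts 82 bases from Cha, so both windows hold largely the same reads. Without the late library, in a fit with the inputs of all 3 driver lines, the ratio of Cha was 0.57 with an adjusted p of 0.0704 by edgeR. CG7708, named ChT (a choline transporter) by RefSeq, was at 0.93, and VGAT, which loads GABA, at 0.71. Acetylcholine is the main excitatory transmitter of the fly brain.

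The other transmitter genes lay lower. Gad1, the GABA synthase, held 34.4 and 34.8 CPM against 55.5 CPM (-0.68 ± 0.28 SE), and VGlut, the vesicular glutamate transporter, held 36.3 and 31.8 CPM against 54.7 CPM (-0.68 ± 0.28 SE). Both passed the edgeR test narrowly, with adjusted p of 0.021. With DESeq2 the adjusted p was 0.0782 for Gad1 and 0.0836 for VGlut, and under the background scaling the ratios were 0.003 and -0.002. The serotonin transporter SerT was the lowest at -1.89, followed by the vesicular monoamine transporter Vmat at -1.53, Tdc1 (tyramine synthesis) at -1.37, Hdc (histamine synthesis) at -1.10, the dopamine synthesis gene ple at -1.02 and the dopamine transporter DAT at -0.60. The call of DAT was lost in edgeR with TMM scaling (adjusted p = 0.0884), RLE scaling (0.0526), and, although DAT has 1 start, when other genes were taken at their start with the largest input (0.0712) or the least H3K27ac (0.0863). It was also lost with DESeq2 (adjusted p = 0.136), and under the background scaling its ratio was 0.086. The others, Tbh (0.58), Ddc (0.58), Dat (0.34), Pu (0.30), Tdc2 (-0.28) and Trh (-0.42), did not pass in either direction. With TMM scaling Tbh and Ddc lay above (adjusted p of 0.034 and 0.0308 by edgeR), and under the background scaling Dat and Pu did as well. With the inputs of 3 driver lines as 1 group, Ddc lay above and Trh below (adjusted p of 0.00575 and 0.00489 by edgeR). H3K27me3 over the gene bodies of Gad1 (2.36 and 2.55 in the early and late libraries), VGlut (2.11 and 2.27), Hdc (1.76 and 1.89) and Vmat (1.63 and 1.84) was above its input on the log2 scale; SerT (-0.38 and -0.52) and Tdc1 (-0.71 and -0.98) had less than their input.

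Neuropeptide genes were seldom above input. Of 37, 2 lay above, 23 below and 12 neither, with a median of -0.91; under the background scaling 7 lay above and 11 below, with a median of -0.24. Those above were Gpb5 (0.80), a glycoprotein hormone subunit, and hug (0.66). The adipokinetic hormone gene Akh, expressed in a gland beside the brain, held 15.0 and 12.9 CPM against 94.5 CPM of input (-2.75 ± 0.27 SE), and IFa was at -2.59. The clock neuron peptide Pdf, named after its value was seen, was at -1.61. As background, most of these peptides are made by small groups of neurons, whose own state an average over all neurons does not show.

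The dpr, beat and side genes encode immunoglobulin proteins of the cell surface that label neurites for their partners. Many had H3K27ac above input at the promoter and a high H3K27me3 level over the gene body. Of 35 dpr, beat and side genes, 29 lay above input and none below, with a median of 0.98. The highest, dpr12, held 107 and 157 CPM against 41.6 CPM of input (1.67 ± 0.29 SE), and beat-IIIb held 120 and 132 CPM against 40.7 CPM (1.63 ± 0.29 SE). The lowest, dpr16 (-0.25) and dpr15 (-0.12), were called neither. Of the same 35 genes, 17 were in the top quintile of all tested genes by H3K27me3 over the gene body, and 12 of those 17 were above input for H3K27ac. No other list had more than 3 such genes. The quintile ranks levels without input, and the list medians of H3K27me3 over input were 0.51 and 0.61 on the log2 scale. Of all 4847 promoters above input for H3K27ac, 18 had H3K27me3 at least 2-fold over input in both libraries. Over all genes, 126 of the 2948 in the top H3K27me3 quintile were above input for H3K27ac. The highest of these, named after their values were seen, included the Polycomb gene Su(z)2 (1.73), the cell surface receptors Toll-7 (1.70) and Tl (1.55), the axon guidance receptor robo3 (1.20), the sex determination gene fru (1.18) and side (1.18). At its start with the least H3K27ac, fru was at -0.88. Different neurons carrying different marks and single neurons carrying both cannot be told apart in a pooled profile. The marks were also counted in different windows, promoter and gene body, so they need not lie at the same place in a gene.

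Markers of other cells of the head had mostly negative ratios. Of 21 glial genes, 13 lay below and 4 above, with a median of -0.98; under the background scaling 6 lay below and 6 above, with a median of -0.31. The glial master regulator repo held 21.6 CPM early and 27.8 CPM late against 86.7 CPM (-1.82 ± 0.27 SE; adjusted p = 3.0e-10 by edgeR), and the lowest was the transcription factor gene pnt at -2.37. The 4 above were Eaat2 (1.10), Nrx-IV (0.94), nrv2 (0.80) and drpr (0.75); Nrx-IV starts 460 bases from another gene. Muscle genes were below in 24 of 26 cases, with a median of -1.39, and myosin heavy chain, Mhc, held 15.2 and 9.96 CPM against 98.2 CPM of input (-2.95 ± 0.27 SE). The 2 above, Tm1 (0.87) and Strn-Mlck (0.83), have several starts of which only the chosen one was above. Fat body and blood genes were below in 15 of 18 cases, with a median of -1.23, and the scavenger receptor crq (1.08), 88 bases from another start, was the 1 above. Under the background scaling 14 muscle genes lay below and 2 above, and 8 fat body and blood genes lay below and 3 above.

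Photoreceptor genes, from the sensory neurons of the eye, were divided. Of 31, 6 lay above, 11 below and 14 neither, with a median of -0.27 (0.42 under the background scaling). The 35.5% below is near the 37.3% of all genes, and the 19.35% above compares with 32.9% of all genes. The signalling genes Ggamma30A (1.27) and Galpha49B (1.02) were the highest, and norpA, the phospholipase C of phototransduction, was at 0.92. The opsins were lower: Rh6 held 17.1 and 30.9 CPM against 118 CPM of input (-2.32 ± 0.28 SE), and ninaE, the main opsin of the outer photoreceptors, held 25.5 and 23.0 CPM against 95.3 CPM (-1.97 ± 0.28 SE). The genes norpA and ninaE were named after their values were seen.

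Receptors of peripheral sensory neurons and genes of other tissues were seldom above input. Ionotropic receptor genes were below in 46 of 59 cases (median -1.44), gustatory receptors in 33 of 62 (median -0.84) and odorant receptors in 27 of 57 (median -0.52, or 0.16 under the background scaling), against 37.3% of all genes. Under the background scaling, which these same families define, ionotropic receptors had 30 below and 4 above, gustatory receptors 19 and 15, and odorant receptors 10 and 11. Odorant binding protein genes were below in 38 of 50 (median -1.16) and pickpocket channel genes in 12 of 16 (median -1.24). Under the background scaling 19 odorant binding protein genes lay below and 7 above, and 6 pickpocket genes lay below and 3 above. These families are used by small sets of neurons or support cells in the antennae, mouthparts and legs. A few members departed from their family. Or67c held 224 CPM early and 177 CPM late against 85.0 CPM of input (1.24 ± 0.25 SE; adjusted p = 3.5e-06 by edgeR), with no other gene start within 19466 bases. Or67d, the receptor for the male pheromone cis-vaccenyl acetate, held 139 and 114 CPM against 51.4 CPM (1.30 ± 0.28 SE). Neither had H3K4me3 above input: the H3K4me3 log2 ratios were -2.98 and -4.45 for Or67c and -2.36 and -4.12 for Or67d. Gr9a (0.86) and Gr22e (0.73) led the gustatory receptors and Pbprp3 (0.59) was the 1 odorant binding protein gene above. Ir76a (0.74) starts 297 bases from another gene.

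Of 120 tested cuticle protein genes, 106 lay below and none above, with the lowest median of the lists with more than 1 tested gene (-2.01). Digestive enzyme genes were below in 35 of 43 cases (median -1.54), cytochrome P450 genes in 57 of 79 (median -1.42), seminal fluid genes in 29 of 44 (median -1.19), antimicrobial peptide genes in 19 of 26 (median -1.07) and germline genes in 28 of 45 (median -0.98). Under the background scaling 78 cuticle, 26 digestive, 42 P450, 18 seminal fluid, 10 antimicrobial and 16 germline genes lay below. In the same order, 3, 5, 9, 5, 5 and 8 lay above. On the P450 list, Cyp4ae1 was at 1.34 and Cyp4c3 at -2.84; Cyp1, at 1.18, is a cyclophilin caught by its symbol. The antimicrobial peptide Mtk was the 1 of its family above, at 0.78. On the germline list bol (1.46) and can (0.62) were above. The chorion list had 15 of 19 below, such as Cp18 (-2.39), and its 3 members above, Cp190 (1.38), Cp1 (0.89) and Cp110 (0.77), are an insulator protein, a cysteine protease and a centriole protein that share only the prefix. With 1 H3K27ac library left out and 3 inputs, Cp110 was at 0.56 and 0.48, with adjusted p of 0.0577 and 0.0960 by edgeR.

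Developmental patterning genes had the lowest median after the cuticle genes and a higher share below input. Of 38 Hox and segmentation genes, 37 lay below input and none above, with a median of -1.91. The Wnt ligand gene wg held 11.95 and 12.94 CPM against 119 CPM of input (-3.26 ± 0.28 SE; adjusted p = 2.2e-28 by edgeR). Antp (-3.17), abd-A (-2.87) and Ubx (-2.74), named after their values were seen, were among the low ones. The exception was the chosen start of Abd-B (position 12760298), with 65.0 and 71.9 CPM against 70.0 CPM of input (-0.03 ± 0.28 SE), while H3K27me3 over its gene body was 2.32 and 2.51 above input on the log2 scale, beside 2.33 and 2.52 at abd-A. The other 4 annotated starts of Abd-B, up to position 12797958, were at -3.58, -3.24, -3.07 and -2.99. Low values were found at most tested genes counted within each complex. Between lab and Antp (3R, 2487149 to 2824950), 29 of 30 tested genes lay below, with a median of -2.67. Those include 20 of the 21 tested genes there that are not on the patterning list, such as cuticle protein genes. Between Ubx and the chosen start of Abd-B (3R, 12482345 to 12760298), 12 of 13 lay below, among them all 10 that are not on the list.

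Homeodomain genes known for neuronal identity were below in 44 of 57 cases, with a median of -1.44. The lowest was otp, with 12.6 and 11.8 CPM against 118 CPM of input (-3.27 ± 0.28 SE), followed by toe (-3.04). The 3 above were onecut (1.09), ct (1.06) and NK7.1 (0.87). The promoter of ct held 87.9 and 84.5 CPM against 41.4 CPM, and its gene body carried H3K27me3 at 1.41 and 1.51 above input. Neural progenitor genes were below in 16 of 21 cases (median -1.16), with wor, a neuroblast factor, at -2.47 and the growth regulator brat as the 1 above, at 1.16. Under the background scaling 8 progenitor genes lay below and 2 above, and 26 homeodomain genes lay below and 7 above. The Enhancer of split complex, the Notch targets, had 12 of 13 genes below (median -1.67), led by m4 (-2.59). The 1 above, gro (1.02), is the corepressor gene at the end of the complex and not one of its Notch-responsive genes.

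The machinery of the Polycomb and trithorax systems was itself acetylated: 21 of 28 genes lay above and 1, esc (-0.72), below, with a median of 0.89. The highest were Su(z)2 (1.73) and Trl, the GAGA factor (1.73), whose start coincides with that of CG42507. At its other start Trl was at 0.14 and 0.16 in the fits with the largest input and the least H3K27ac, with adjusted p of 0.655 and 0.613 by edgeR. Of 21 nuclear receptor genes, 6 lay above (28.6%) and 9 below (42.9%), near the 32.9% and 37.3% of all genes, with a median of -0.26 (0.43 under the background scaling). The ecdysone receptor partner usp (1.5) and ftz-f1 (1.39) were the highest, and the gap genes knrl (-2.62) and kni (-2.55) the lowest.

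Genes of the clock list, which holds kinases and cofactors beside the core clock genes, did not share a state. Of 16, 8 lay above and 2 below, with a median of 0.62. The shares were 50% and 12.5%, against 32.9% and 37.3% of all genes. Those above were nej (1.87), which encodes CBP itself, the kinase genes CkIIalpha (1.42), CkIIbeta (1.15), dco (1.14) and sgg (0.94), the phosphatase subunit tws (0.75), and the F-box genes slmb (0.87) and jet (0.62), which act on clock proteins after they are made or as a cofactor. At the start with the least H3K27ac, sgg was at -0.36 and tws at -2.38. Without the late library, in the fit with 3 inputs, jet was at -0.14. The 2 below were the central transcription factor Clk, with 29.8 and 25.6 CPM against 76.8 CPM of input (-1.47 ± 0.27 SE), and tim, with 26.6 and 26.8 CPM against 66.2 CPM (-1.31 ± 0.27 SE). Between them, cwo (0.61), cyc (0.61), cry (0.23), per (0.19), Pdp1 (0.19) and vri (-0.21) were called neither. With TMM scaling cwo and cyc lay above (adjusted p of 0.032 and 0.0324 by edgeR), but not with DESeq2. They also lay above with RLE and background scaling, at either other choice of start and with 3 inputs as 1 group. Only under the background scaling did cry, per and Pdp1 lie above. Of 10 activity-regulated genes, 5 lay above and 1 below (median 0.66), or 50% and 10%, against 32.9% and 37.3% of all genes. CrebB-17A, the memory-related CREB, was at 1.39 and kay, the fly Fos, at 1.38. Both calls were lost at other starts: with the start of the largest input and that of the least H3K27ac, CrebB-17A was at 0.083 and 0.16 (adjusted p of 0.797 and 0.63 by edgeR) and kay at -0.16 and 0.39 (0.605 and 0.223). In the same list, CrebA was at -0.91 (-0.73 and -0.53 with 1 H3K27ac library left out and 3 inputs, adjusted p of 0.0650 and 0.148 by edgeR) and the immediate early genes Hr38 (0.09) and sr (-0.40) did not pass.

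For small RNA genes the window is centred on the annotated start of the mature or precursor RNA, which need not be the promoter that produces it. Of 167 microRNA genes, 21 lay above and 86 below (median -0.68, and 0.00 under the background scaling). The shares were 12.6% and 51.5%, against 32.9% and 37.3% of all genes. The highest besides mir-2496 was mir-14, with 177 and 149 CPM against 50.3 CPM of input (1.70 ± 0.27 SE). The abundant neuronal microRNAs mir-276a (1.59) and mir-124 (1.16), named after their values were seen, also lay above. The lowest were mir-iab-8 (-3.25), in the bithorax complex, and mir-955 (-3.06). Of 292 tRNA genes, 20 lay above and 108 below (median -0.28, or 0.40 under the background scaling). The 37.0% of tRNA genes below is near the 37.3% of all genes. Small nucleolar RNA genes had 23 of 249 above and 135 below (median -0.71), or 57 above and 53 below under the background scaling (median -0.04). Spliceosomal RNA genes had 2 of 31 above and 12 below (median -0.27, or 0.41 under the background scaling). The 38.7% of spliceosomal RNA genes below is also near the share of all genes, while 54.2% of small nucleolar RNA genes lay below. Reads from near-identical copies may have been split or lost in all 3 of these families.

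The choice of start decided the call of several neuronal genes. Values for single starts are log2 ratios of CPM with a pseudocount of 1. Syt1, the calcium sensor of synaptic release, has 2 annotated starts. The one with the most H3K27ac (2L, position 2793269) held 51.7 and 60.7 CPM against 68.1 CPM of input, and the other (2L, position 2799970) held 52.4 and 45.5 CPM against 23.9 CPM, a ratio of 1.00. H3K4me3 at the first was 34.3 and 13.4 CPM and at the second 44.0 and 44.2 CPM. CaMKII behaved likewise: its start at position 1074329 of chromosome 4 had a ratio of 1.28 (27.5 and 16.4 CPM against 8.20 CPM of input), although it held fewer H3K27ac counts than the start at 1071956, with -0.13. A large H3K27ac count thus need not go with a high ratio, because the input differs between starts of 1 gene.

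The muscle genes Tm1 and Strn-Mlck each had 1 start above input. For Tm1 the start at 3R, position 11116668, was at 0.86, the one at 11113759 at -0.33, and the 3 others between -2.13 and -2.30. For Strn-Mlck the start at 2R, position 11842799, was at 0.82 and the other 5 between -1.06 and -2.26. Other genes with such a range were nrv2 (0.79 and -2.45), Ggamma30A (1.25 and -1.32), crq (1.06 and -0.74) and Ir76a (0.99 and -1.86). The glial transporter gene Eaat2 (1.09 and -0.06) had a smaller one. Hk ranged from 1.5 to -0.28. Both starts of elav lay above input, at 1.77 and 1.35, and both of Gad1 below, at -0.67 and -1.15.

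Over the genome, 1313 genes had their highest and lowest start more than 1000 bases apart with at least 10 input counts at each. The median gap between those starts was 0.81 on the log2 scale. In 190 genes the highest start was at least 0.5 above and the lowest at least 0.5 below input in both libraries. In 161 every start was above by this measure, and in 267 every start was below. Of all tested genes with 1 start, 28.7% lay above input, and of those with 5 or more starts 65.1% did. With the start holding the least H3K27ac in place of the most, the share for 5 or more starts was 24.8%, so the rise beyond 2 starts depended on the choice. From 1 to 2 starts the share rose under both, from 28.7% to 49.1% with the most and from 31.4% to 39.3% with the least. For genes with 1 start only the library totals change between these settings.

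**Figure D4:**
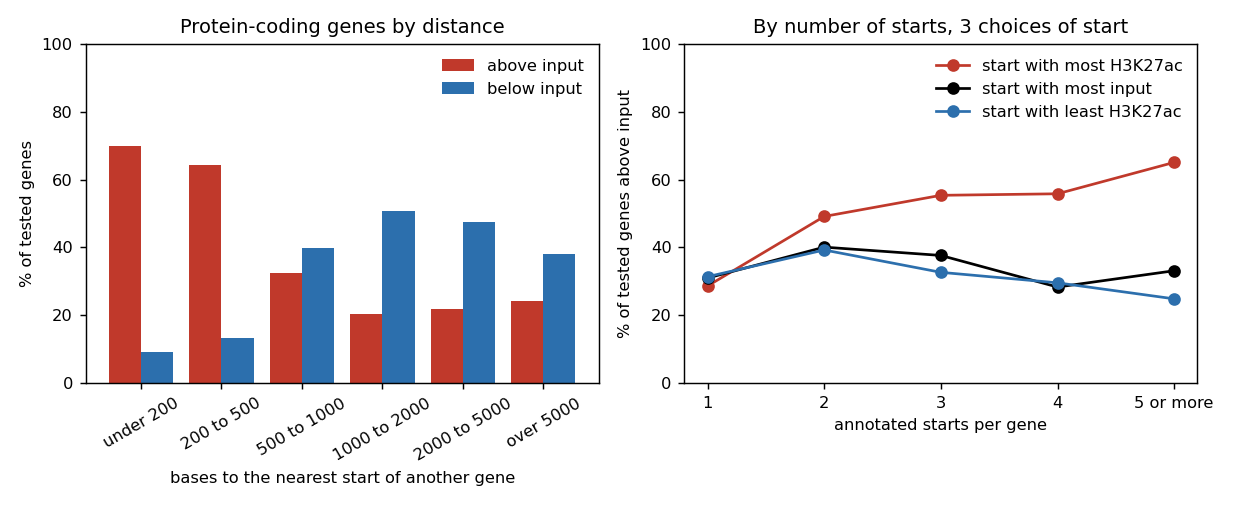
Left, share of tested protein-coding genes above and below input (vertical axis, %) by distance to the nearest start of another gene. Right, share of all tested genes above input by number of annotated starts, with the start holding the most H3K27ac, the most input or the least H3K27ac kept for each gene; the share above is 70.0% for starts under 200 bases apart and 20.2% at 1000 to 2000 bases, and beyond 2 starts the share goes on rising only for the first choice.

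Promoters close to the start of another gene were above input more often than isolated ones. Among protein-coding genes with the start of another gene within 200 bases, 70.0% lay above input and 9.17% below. At 200 to 500 bases 64.4% lay above, and at 500 to 1000 bases 32.4%. Beyond that the share was 20.2% at 1000 to 2000 bases, 22.0% at 2000 to 5000 bases and 24.1% above 5000 bases. Windows of starts under 1000 bases apart overlap, so neighbours share reads and are not separate observations. The housekeeping lists have many such neighbours. Among genes with no other start within 1000 bases, the median was 1.02 for cytoplasmic ribosomal protein genes, 0.56 for mitochondrial ones and 0.38 for proteasome subunits, and -0.43 for all genes. Presynaptic genes are mostly isolated (31 of 42), and their median among isolated genes was 1.14.

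Genes on the X chromosome had higher ratios than those on the autosomes. Of 2287 tested X genes, 41.4% lay above input, with a median of 0.32, against 31.4% and -0.03 for the 12224 genes of the large autosome arms. The gap between the X and autosome medians was 0.23 in the early and 0.44 in the late library, with the same input. It was 0.18 and 0.38 among genes with no other start within 1000 bases. The sex of the flies is not in the labels. Chromosome 4, a small and largely heterochromatic chromosome, had a median of 0.34 over 84 genes. The 6 tested genes of the Y chromosome, which are used in the testis, were all below input, with a median of -4.49. Ory held 1.04 and 0.90 CPM against 31.0 CPM of input (-4.96 ± 0.39 SE), and kl-5 0.93 and 1.49 CPM against 33.0 CPM (-4.82 ± 0.38 SE). Of 69 tested genes on unplaced sequence, 67 lay below, with few counts each (median input 9.43 CPM).

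H3K27ac followed H3K4me3 closely when genes were ranked by the H3K4me3 level at the promoter, a measure that does not use the input. In the top quintile of H3K4me3, 2411 of 2948 genes lay above input for H3K27ac and 1 below. In the next quintile 1848 lay above, in the middle quintile 405, and in the lower ones 111 and 72. The order was opposite for H3K27me3 over gene bodies, per kb. The counts above input were 1599 and 1702 in the lowest 2 quintiles, 1113 in the middle, and 307 and 126 in the upper ones, and those below rose from 465 and 371 to 1860 and 1856. H3K4me3 was counted in the same promoter windows, so these are descriptions across genes.

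Some promoters carried 1 of the active marks without the other. In the lowest 2 quintiles of H3K4me3, 183 genes lay above input for H3K27ac, and 18 of them had another start within 1000 bases. Their median ratio was 0.76, and 177 of them also had a positive ratio in OK107 and 162 in Tdc2, which have their own inputs. These are counts by sign without a test. The medians of the 183 genes there were 0.57 and 0.33, against 0.05 and 0.02 for all genes, so positive ratios are common in both lines. Beside the receptors Or67d and Or67c, the 183 genes include the cell adhesion gene kirre (1.32), the leucine-rich repeat gene kek2 (1.17), norpA (0.92) and several tRNA genes. At another start kirre was at -0.39. The genes kirre and kek2 were named after their values were seen. In the top 2 quintiles of H3K4me3, 56 genes lay below input for H3K27ac, with a median of -0.82, and 32 of them had another start within 1000 bases. Of the 56, 37 are protein-coding. Among the most acetylated genes, the chosen start of east had H3K4me3 below its input (-0.67 and -0.99) and that of Hsromega above (1.91 and 2.19). At the other starts of east, H3K4me3 was 60.6 and 70.3, 108 and 145, and 131.5 and 176 CPM. Their inputs were 20.8, 30.8 and 40.2 CPM, and H3K27ac was at 1.47, 1.61 and 1.34. The other start of norpA held 82.0 and 83.0 CPM of H3K4me3 against 32.1 CPM of input, with H3K27ac at 1.08. Low H3K4me3 thus belongs to the chosen starts of east and norpA.

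**Figure D5:**
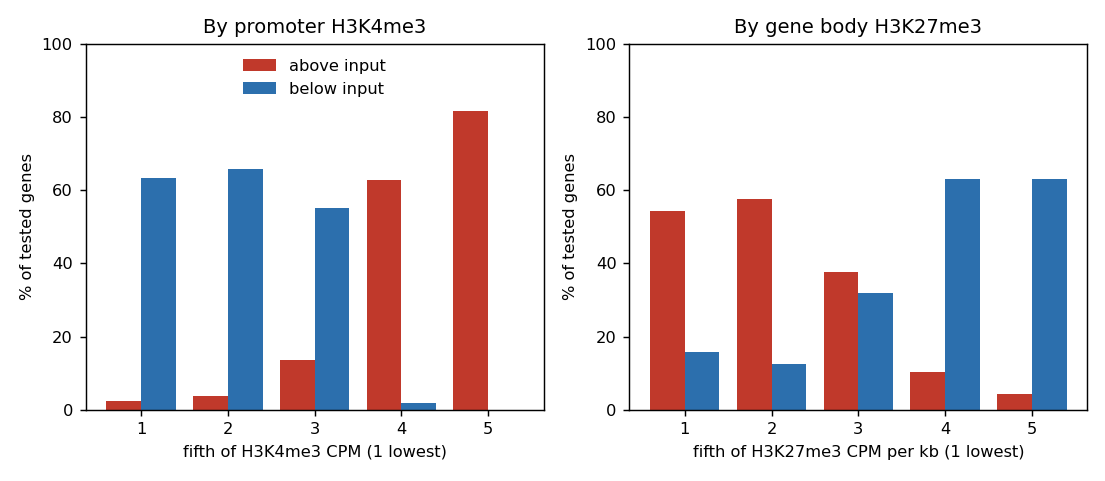
Share of tested genes called above and below input for H3K27ac (vertical axis, %) in each quintile of promoter H3K4me3 CPM (left) and of H3K27me3 CPM per kb of gene body (right), 2948 genes each. The share above input goes from 2.44% in the lowest to 81.8% in the highest H3K4me3 quintile, and from 54.2% in the lowest to 4.27% in the highest H3K27me3 quintile.

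The promoter ratios were similar in 2 narrower sets of neurons, each with 1 H3K27ac library and its own input: those of OK107-GAL4, labelled Kenyon cells (mushroom body neurons used in odour memory), and those of Tdc2-GAL4, labelled octopaminergic neurons. Across genes the R57C10 ratio, as the mean of the early and late values, correlated at a Pearson r of 0.952 with OK107 and 0.878 with Tdc2, over 14740 genes that are not independent. The ratios were less spread in those lines: the standard deviation over genes was 1.21 and 1.23 in the R57C10 libraries, 0.97 in OK107 and 0.65 in Tdc2. Sizes are therefore not comparable between lines, and a value nearer to 0 in Tdc2 is no sign of a difference. List medians were 0.76 in OK107 and 0.45 in Tdc2 for presynaptic genes, 1.07 and 0.60 for cytoplasmic ribosomal protein genes, and -1.46 and -0.89 for Hox and segmentation genes. The wiring protein genes were lower in both, at 0.38 and 0.23, although their R57C10 median was near that of the presynaptic genes; this difference was not tested. Cha was at 0.18 in OK107 and -0.43 in Tdc2, and Tdc2, the tyramine synthesis gene of octopaminergic neurons, was at 0.13 and 1.05.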

How the data were processed

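Chromatin immunoprecipitation sequencing counts were used for 2 H3K27ac libraries and 1 input from R57C10 nuclei. The authors deposited raw read counts per annotated isoform in promoter windows and gene bodies. Per the submitters' processing notes, CASAVA 1.8, Bowtie 0.12.7 and bedtools 2.15 were used with the dm3 assembly; the treatment of reads with several matches is not given in the sources used here. The table has 25701 isoform rows, of which 92 are spike-ins with no counts and 203 name no gene; the latter held 0.81% to 1.15% of the counts and were left out. A further 56 columns of per-sample values were not used.

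One isoform per gene was kept by the largest H3K27ac sum. Counts were tested with edgeR 4.0.16 (R 4.3.3; quasi-likelihood test, total-count scaling, filterByExpr, Benjamini-Hochberg adjustment, threshold 0.05) and, as an alternative, DESeq2 1.42.0. Single-library ratios used a pseudocount of 1 CPM. The procedure was tested on simulated data. Ratios of H3K4me3 and H3K27me3 share the R57C10 input with those of H3K27ac and are only set side by side; quintiles were ranked on levels without input. Gene lists came from symbols and background knowledge. The genes, lists and tests were chosen with earlier results of these data known. Named genes were the 10 highest and 10 lowest with a symbol and enough counts, the 2 highest and 2 lowest of each list, and the members of the transmitter, clock, activity and glia lists; others are said to be chosen later. A gene's identity follows the files' symbols, with RefSeq names where stated.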

Additional observations from a re-analysis of the deposited data

Results flagged for a closer look

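At 6 named genes called above or below input, both R57C10 libraries lay on one side of their input and the Tdc2 library, labelled octopaminergic neurons, lay more than 0.25 (log2) on the other side of its own input. Genes nearer to 0 in Tdc2, such as tim (0.13) and esc (0.24), and genes called neither are not among them. The cholinergic genes Cha and VAChT, which share most of their window, were above input in R57C10 (1.42 and 1.34) and had log2 ratios of -0.43 and -0.43 in Tdc2. The vesicular transporter genes VGlut and Vmat were below input in R57C10 (-0.68 and -1.53) and at 0.40 and 0.41 in Tdc2. Or67c went from 1.24 to -0.40 and the homeodomain gene ct from 1.06 to -0.31. Tdc2 has 1 H3K27ac library and 1 input, so these differences were not tested, and the genes were found by this comparison among those named.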

How the results depend on the processing

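No paired analysis was possible because the columns carry date tags in place of replicate numbers and there is 1 input. Relative to the 4847 promoters above and 5493 below input, TMM scaling gave 5259 and 5190, RLE scaling 4948 and 5418, DESeq2 4319 and 5037, no filter 4842 and 5498, and the background scaling 7162 and 3249. Of the 4847, 4836 were also above under the background scaling, and all 3249 below there were among the 5493. With the inputs of 3 driver lines as 1 group the counts were 5844 and 6028. With 1 H3K27ac library left out, and those inputs, so that the lone library is assumed to vary like the inputs, they were 5338 to 5510 above and 5707 to 5852 below. The start with the largest input gave 4760 and 5608, and the start with the least H3K27ac 4754 and 5623. In simulated data with 200 genes changed, 14% of those changed 2-fold and 97% of those changed 4-fold were recovered. Far more promoters were called in the data, which makes the adjusted threshold less strict, so these shares do not carry over. The called log2 ratios nearest to the input were 0.53 above and -0.53 below, and smaller differences were not called. The test rests on 1 residual degree of freedom and a spread shared by all genes. The promoter sequence description that had been planned was not run, since no promoter sequences were used here.

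Over 179 named genes and all settings, 1642 of 1790 refitted values kept their direction and their side of the threshold, 46 lost the call, 52 gained one and 50 changed sign. With TMM scaling, the log2 ratio changed sign for Abd-B (0.067). Under the background scaling, the log2 ratio changed sign for Abd-B (0.66), CaMKII (0.55), DAT (0.086), Gad1 (0.003), Syt1 (0.42), Tdc2 (0.41), Trh (0.27), dpr15 (0.56), dpr16 (0.47), sr (0.29) and vri (0.48). At the start with the largest input, the log2 ratio changed sign for Galpha49B (-0.40), Hk (-0.23), Hr38 (-1.76), Ir76a (-1.83), Strn-Mlck (-1.01), Tm1 (-2.32), fru (-0.56), kay (-0.16), kirre (-0.25), nrv2 (-1.61), sgg (-0.10) and tws (-2.40). At the start with the least H3K27ac, the log2 ratio changed sign for CaMKII (1.52), Dat (-0.40), Galpha49B (-0.38), Ggamma30A (-1.26), Hr38 (-1.74), Ir76a (-1.81), Pdp1 (-0.65), Strn-Mlck (-1.80), Syt1 (1.12), Tm1 (-2.30), crq (-0.66), ct (-0.003), dpr16 (0.80), fru (-0.88), kirre (-0.39), nrv2 (-2.50), sgg (-0.36), sr (0.58) and tws (-2.38). With the inputs of 3 driver lines as 1 group, the log2 ratio changed sign for CaMKII (0.17) and Hr38 (-0.019). With 1 H3K27ac library left out, and the inputs of 3 driver lines, it changed sign in at least 1 fit for CaMKII (0.14 to 0.20), Hr38 (-0.13 to 0.081), dpr16 (-0.89 to 0.047) and jet (-0.14 to 0.92). The cause of these changes was not tested, apart from the choice of start, which exchanges the window itself.

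With the start of the largest input, list medians moved by more than the pooled SD of 0.11 for voltage-gated and potassium channels (0.71), GABA and glutamate receptors (0.43), clock (0.48), activity-regulated (0.28), glia (-1.14) and nuclear receptors (-0.62). With the start of the least H3K27ac they moved for cytoplasmic ribosomal proteins (1.22), respiratory chain (1.26), heat shock and chaperones (0.17), voltage-gated and potassium channels (0.73), nicotinic receptor subunits (1.18), GABA and glutamate receptors (0.45), activity-regulated (0.48), glia (-1.34), muscle (-1.71) and nuclear receptors (-1.01). Among genes with no other start within 1000 bases they moved for mitochondrial ribosomal proteins (0.56), proteasome subunits (0.38), proteasome paralogs with T or R suffix (-0.81), V-ATPase subunits (-0.025), aminoacyl-tRNA synthetases (0.34), heat shock and chaperones (0.20), voltage-gated and potassium channels (0.87), nicotinic receptor subunits (1.09), GABA and glutamate receptors (0.56), activity-regulated (0.52), gustatory receptors (-0.51), odorant binding proteins (-0.79), antimicrobial peptides (-0.71), digestive proteases and sugar enzymes (-1.37), chorion and vitelline membrane (-1.50), germline and testis (-1.41), Polycomb and trithorax (0.73), nuclear receptors (-0.81), microRNA genes (-0.33) and spliceosomal small RNA genes (-0.12); that of V-ATPase subunits changed sign. With 1 H3K27ac library left out, medians ranged as follows where they moved by more than that SD: respiratory chain (0.98 to 1.20), clock (0.49 to 0.78), glia (-0.87 to -0.84), muscle (-1.53 to -1.28), fat body and blood (-1.41 to -1.22), odorant receptors (-0.67 to -0.46), gustatory receptors (-0.98 to -0.71), ionotropic receptors (-1.51 to -1.32), pickpocket channels (-1.30 to -1.08), cuticle proteins (-2.12 to -1.97), seminal fluid proteins (-1.33 to -1.02), digestive proteases and sugar enzymes (-1.58 to -1.43), chorion and vitelline membrane (-1.48 to -1.21), germline and testis (-1.10 to -1.02), homeodomain identity factors (-1.63 to -1.28), neural progenitor factors (-1.31 to -1.14), tRNA genes (-0.43 to -0.16) and spliceosomal small RNA genes (-0.40 to -0.22). The sign of each list median was kept in these fits.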
